A study of Homo sapiens with 10 samples.

Results

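The genes described here encode 5 families of RNA splicing factors and were chosen by symbol alone. They comprise the SR proteins (SRSF followed by a number), the heterogeneous nuclear ribonucleoproteins or hnRNPs (HNRNP), the SF3A and SF3B subunits, the proteins of the small nuclear ribonucleoprotein particles or snRNPs (SNRP), and the muscleblind genes MBNL1, MBNL2 and MBNL3. Of 26040 genes in the deposited table, 65 matched: 12 SRSF, 28 HNRNP, 9 SF3A or SF3B, 13 SNRP and 3 MBNL genes. Processed pseudogenes account for 4 of the names, HNRNPA1P10, HNRNPA1P33, HNRNPA3P1 and SNRPD2P2. A filter of at least 10 scaled fragments in at least 3 libraries was passed by 59 members. The other 6, HNRNPA3P1, HNRNPCL1, HNRNPCL2, HNRNPCL3, HNRNPCL4 and SNRPD2P2, never exceeded 5.10 scaled fragments in any library and were not tested. A scaled fragment is the deposited unit: an estimated number of sequenced fragments of a gene, multiplied by a factor for each library.

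Introns are cut out of nascent transcripts by the spliceosome, a machine assembled from snRNPs on every intron. The SNRP genes encode the Sm proteins that form a ring around the small nuclear RNAs, and proteins specific to the U1 or U2 particle. SF3A and SF3B are the parts of the U2 particle that hold the branch site. SR proteins bind exons and mostly promote their inclusion, hnRNPs coat nascent RNA and often repress nearby splice sites, and muscleblind proteins steer alternative exons during tissue differentiation and are sequestered by repeat RNA in myotonic dystrophy.

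The data came from U2OS, a human osteosarcoma cell line, and the study asked how ARVCF, a catenin bound to cadherins at cell junctions, affects transcription driven by p53. Nutlin-3a activates p53 by releasing it from MDM2, its ubiquitin ligase. All lines had been infected with lentivirus carrying a short hairpin RNA and selected in 1 µg/ml puromycin, and each line was a single clone. The control group was 1 line with a negative control hairpin, measured in 1 untreated library and in 3 libraries after 10 µM nutlin-3a for 24 h. The shARVCF group was 3 lines, each with a different hairpin against ARVCF, with 1 untreated and 1 nutlin-3a library per line, so that replicate numbers 1 to 3 name lines. Spread between shARVCF libraries therefore includes hairpin and clone, whereas the control libraries share 1 clone, and whether the 3 control libraries were separate cultures is not given. What the p-values measure is library-to-library spread, part of which may be technical. Nutlin-3a control replicates 2 and 3 carry later library numbers than the other 8 libraries and are called the second library series here. No label names such a series, and it holds nutlin-3a control libraries only.

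Library totals of scaled fragments lay between 17821751 and 19903778. ARVCF itself was at 618 in the control line without drug and at 292, 343 and 338 in the untreated shARVCF libraries, and at 2928, 2571 and 2376 against 1284, 1188 and 1232 under nutlin-3a, so the hairpin labels and the transcript levels went the same way. The mesenchymal markers VIM, SPARC and COL1A1 were each at least 27686 in every library, but COL1A2 was at most 15.5, SP7 at most 1.90 and BGLAP at most 4.77. The osteoblast genes RUNX2 (328 to 1444) and ALPL (122.6 to 1502) were expressed and moved with treatment: in the control line RUNX2 stood at 1061 without drug and at 328 to 361 under nutlin-3a, and ALPL at 176 and at 1265 to 1502. Of the markers of other cell types, PTPRC, CD3E, CD14, ALB, MYOD1 and ACTA1 were at most 12.7, whereas EPCAM (43.8 to 143), RBFOX3 (89.1 to 708) and SNAP25 (70.8 to 226) were above background. RBFOX3 was higher in every treated library (419 to 708) than in every untreated one (89.1 to 196), and the part of these genes in the results below was not tested. In bulk RNA, fewer cells of a kind and less RNA per cell cannot be told apart.

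Under nutlin-3a most splicing factor genes fell in the shARVCF lines, whereas the changes in the control line were mixed and depended on the processing. Of the 59 tested members 40 fell and 4 rose in the shARVCF lines. Among all 14955 genes tested, 21.7% fell and 21.0% rose. The median log2 fold change of the members was -0.60, against -0.00 for all genes. In the control line 25 members fell and 10 rose (all genes: 32.0% and 25.1%), with medians of -0.25 and -0.10. The share of members that fell was therefore 67.8% against 21.7% of all genes in the shARVCF lines, and 42.4% against 32.0% in the control line. Tests were limma on log2(value + 1), two-sided, with Benjamini-Hochberg adjustment over all genes and a threshold of 0.05. Each log2 fold change is on that scale, which understates the change of genes near 0. The upper-quartile scaling moved the split in the control line to 12 risen and 18 fallen, and it shifted the median of all genes there from -0.10 to 0.07. Of the 14955 genes tested, 4649 then rose and 4095 fell there. Within the first library series alone, 41 fell and 4 rose in the shARVCF lines, and 24 fell and 9 rose in the control line.

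**Figure D1:**
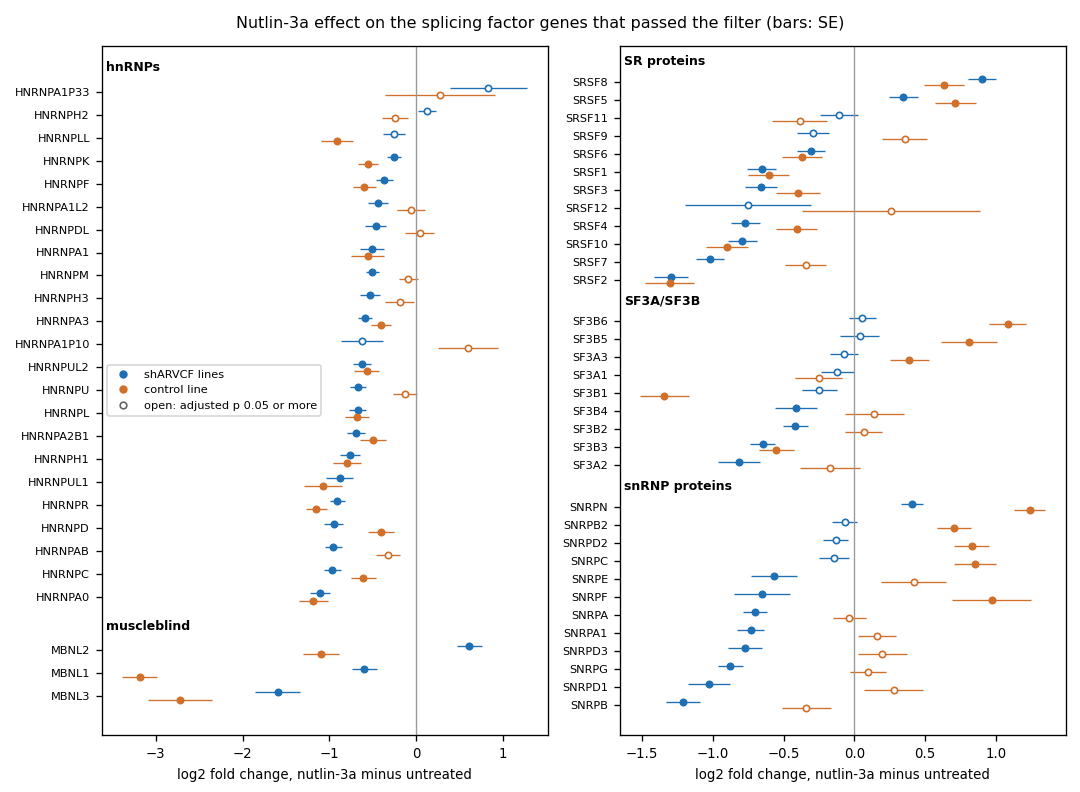
Log2 fold change of each tested splicing factor gene under nutlin-3a (x axis) in the shARVCF lines (blue) and the control line (orange), with SE as bars and open points for an adjusted p of 0.05 or more. The snRNP protein genes mostly lie left of 0 in blue and right of 0 in orange, most hnRNP genes lie left of 0 in both colours, and MBNL1 is the point furthest from 0 at -3.19 in the control line.

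Further comparisons set the lines against each other. Under nutlin-3a, 29 members were lower and 8 higher in the shARVCF lines than in the control line (all genes: 26.1% and 32.3%). Median log2 differences were -0.29 for the members and 0.06 for all genes. Of all 14955 genes tested, 4683 were lower and 4259 higher with upper-quartile factors, and the members' own counts follow. The upper-quartile scaling gave 34 lower and 5 higher, and the first library series alone gave 20 and 8. Without drug no member was called in either direction (all genes: 0.0201% called, all of them higher), and 2 members, SNRPN and SNRPD3, had an unadjusted p under 0.05 by limma. The third comparison, the difference of the nutlin-3a effects (shARVCF effect minus control effect), was lower for 21 members and higher for 4 (all genes: 12.5% and 19.3%). In the first library series alone it was lower for 16 and higher for 3. These comparisons share libraries, so their counts are not independent of each other.

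Transcript length moved with the effects. Across 14734 genes with an annotated length, the Spearman correlation of log2 fold change with spliced length was -0.43 in the control line, -0.03 in the shARVCF lines and 0.58 for the difference of the effects. Genes are not independent replicates, and these values describe the libraries only. Longer genes therefore had lower values after nutlin-3a in the control line, and most SNRP genes are shorter than the MBNL genes: SNRPD2 has 901 spliced bases, MBNL1 6458 and MBNL3 11294. When the dependence on transcript length and GC content was removed from each library, 38 members fell and 4 rose in the shARVCF lines (all genes: 20.7% and 24.4%), nearly as before. In the control line 13 fell and 13 rose (21.1% and 28.7%). The share of members fallen there, 22.0%, was then near that of all genes. Under nutlin-3a 34 were lower and 2 higher in the shARVCF lines (23.0% and 15.9%), and the difference of effects was lower for 20 and higher for 2 (8.23% and 5.3%).

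**Figure D2:**
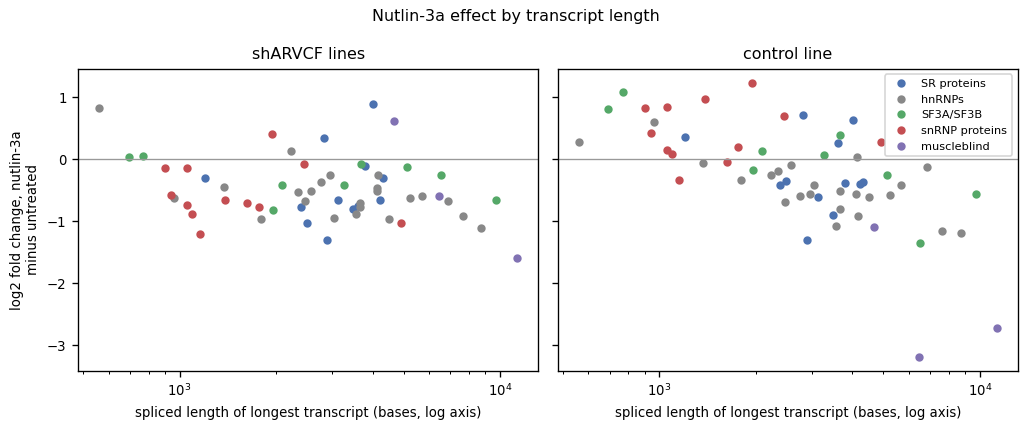
Log2 fold change under nutlin-3a (y axis) against the spliced length of the longest annotated transcript in bases (x axis, log scale), 1 point per tested member, coloured by family, with the shARVCF lines left and the control line right. In the control line most SNRP genes, SF3B5 and SF3B6 lie above 0 and MBNL1 and MBNL3 lie far below it, whereas the same SNRP genes lie mostly below 0 in the shARVCF lines.

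The snRNP protein genes differed between the lines throughout the family. Of 12 tested SNRP genes 8 fell in the shARVCF lines and SNRPN alone rose, with a family median of -0.68 (all genes: 21.7% and 21.0%). In the control line none fell and 5 rose (median 0.35, all genes: 32.0% and 25.1%). After trend removal 2 fell and 4 rose in the control line (median 0.22, all genes: 21.1% and 28.7%). In the shARVCF lines 8 then fell and 1 rose (all genes: 20.7% and 24.4%). The difference of effects was below 0 and called for all 12, from -0.67 for SNRPA to -1.62 for SNRPF (all genes: 12.5% called lower). After trend removal 6 of the 12 stayed called (all genes: 8.23% called lower), and all 12 values stayed below 0. The summed SNRP signal was 0.117% of the library total in the untreated control library and 0.143% to 0.155% under nutlin-3a, but 0.124% to 0.134% in untreated shARVCF libraries and 0.0903% to 0.0963% under nutlin-3a.

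The largest falls of the family were in the core Sm genes. SNRPB encodes the Sm B and B′ proteins (chromosome 20, 2461634 to 2470853, minus strand, 7 exons; coordinates of members are from GENCODE release 29 on GRCh38). It stood at 3164 in the control line without drug, 2920.0, 2435 and 2196 in its nutlin-3a libraries, 3003, 2557 and 3189 in the shARVCF lines without drug and 1209, 1182 and 1384 in their nutlin-3a libraries. All 3 treated shARVCF libraries lay below every other library (log2 -1.21, SE 0.12, adjusted p = 5.66e-06), whereas the treated control libraries overlapped the untreated shARVCF ones and the control change of -0.34 missed the threshold (adjusted p = 0.109). Without nutlin-3a control replicate 1 that value was -0.45 and passed (adjusted p = 0.0289). After trend removal the difference of effects of SNRPB was -0.15 and was not called, so its contrast between the lines depended on that setting. SNRPD1, which encodes Sm D1, stood at 1546 in the control line without drug, 1481, 1939 and 2284 in its nutlin-3a libraries, 1571, 1468 and 1700.1 in the shARVCF lines without drug and 709, 732 and 887 in their nutlin-3a libraries. Its shARVCF libraries under nutlin-3a lay below all others (log2 -1.03, SE 0.15, adjusted p = 0.000114), and they differed from the nutlin-3a control libraries by log2 -1.28 (adjusted p = 1.27e-05).

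The Sm genes SNRPD3 and SNRPG also fell in the shARVCF lines, at -0.77 (adjusted p = 0.000233) and -0.88 (adjusted p = 6.59e-06), and neither was called in the control line. SNRPD3 stood at 2207 in the untreated control library but at 3419.7, 3578 and 3647 in the untreated shARVCF libraries. That difference of 0.68 had an adjusted p of 0.988 and rests on 1 control library. SNRPD2, the SNRP gene with the highest mean over the 10 libraries but below SNRPD3 in the untreated shARVCF libraries on average, stood at 3345 in the control line without drug, 6568, 5659 and 5628 in its nutlin-3a libraries, 3428, 3097 and 3279.6 in the shARVCF lines without drug and 2921, 2929.7 and 3094 in their nutlin-3a libraries. Its nutlin-3a control libraries exceeded all others (log2 0.83, SE 0.13, adjusted p = 0.000133), and its shARVCF value of -0.13 was not called (adjusted p = 0.262). After trend removal the control value of SNRPD2 was 0.09 (adjusted p = 0.56).

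SNRPF, another Sm gene, had the largest difference of effects of the family. Values were 630.2 in the control line without drug, 871, 1301 and 1663 in its nutlin-3a libraries, 752, 760.3 and 779 in the shARVCF lines without drug and 414, 489 and 566 in their nutlin-3a libraries. The nutlin-3a groups did not overlap (shARVCF minus control log2 -1.34, SE 0.20, adjusted p = 0.000132), but the control libraries spread widely, with replicate 1 the lowest. In the first library series alone the control change was 0.47 (adjusted p = 0.0928), compared with 0.97 (adjusted p = 0.0113) over all libraries. The shARVCF fall of -0.65 (adjusted p = 0.02) missed the threshold without untreated shARVCF replicate 3 or nutlin-3a shARVCF replicate 1 or 2 (adjusted p = 0.0511 to 0.0741), and after trend removal it was -0.40 (adjusted p = 0.214). SNRPE showed 449.8, 398 and 396 in untreated and 292, 287 and 259 in nutlin-3a shARVCF libraries (log2 -0.57, SE 0.16, adjusted p = 0.0138). That call was lost without untreated shARVCF replicate 1 (adjusted p = 0.0515).

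The particle-specific genes divided. SNRPC, a U1 protein, stood at 2664 in the control line without drug, 4436, 5019 and 4962 in its nutlin-3a libraries, 2719, 2626 and 2895 in the shARVCF lines without drug and 2246, 2345 and 2891 in their nutlin-3a libraries. The nutlin-3a control libraries lay above all others (log2 0.85, SE 0.15, adjusted p = 0.000385), although the trend-removed value of 0.35 missed the threshold (adjusted p = 0.0581). SNRPB2, a U2 protein, behaved likewise in the control line (log2 0.70, SE 0.12, adjusted p = 0.000335; 1.17 after trend removal) and was not called in the shARVCF lines (-0.07). SNRPA of U1 and SNRPA1 of U2 instead fell in the shARVCF lines, by 0.70 and 0.73 on the log2 scale (adjusted p = 2.45e-05 and 5.72e-05), and were not called in the control line. After trend removal their differences of effects were -0.04 and -0.57, and neither was called.

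**Figure D3:**
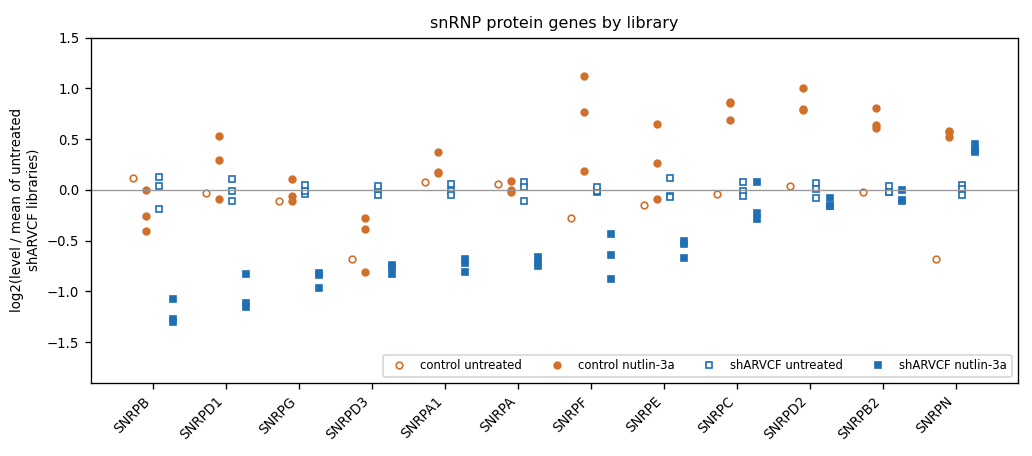
Level of each tested SNRP gene in each of the 10 libraries, as log2 of the level over the mean of the 3 untreated shARVCF libraries (y axis), with circles for the control line and squares for the shARVCF lines, open for untreated and filled for nutlin-3a. Filled squares reach -1.30 for SNRPB, filled circles lie above 0.5 for SNRPC, SNRPD2 and SNRPB2, and the open circle of SNRPN lies at -0.68.

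SNRPN, an imprinted gene that encodes an SmB-like protein mainly of brain, rose in both kinds of line and so ran against its family in the shARVCF lines alone (chromosome 15, 24823637 to 24978723, plus strand, 15 exons). It stood at 1091 in the control line without drug, 2599.8, 2621 and 2515 in its nutlin-3a libraries, 1808, 1759 and 1688 in the shARVCF lines without drug and 2275, 2391 and 2301 in their nutlin-3a libraries. The untreated control library was the lowest of the 10, and both treated groups lay above every untreated library. The rise of SNRPN was 1.24 in the control line (SE 0.11, adjusted p = 1.56e-06) and 0.41 in the shARVCF lines (SE 0.08, adjusted p = 0.001), a difference of -0.83 (adjusted p = 0.000721). The untreated difference of 0.68 missed the threshold (adjusted p = 0.0957), as did the treated difference of -0.15 (adjusted p = 0.112). The shARVCF lines thus started higher, against 1 control library, and reached treated levels below those of the control line. The ratio of SNRPN to SNRPB signal was 0.345 in the untreated control library, 0.89 to 1.15 in nutlin-3a control libraries, 0.53 to 0.688 in untreated shARVCF libraries and 1.66 to 2.02 in nutlin-3a shARVCF libraries. These ratios compare scaled fragments and not numbers of molecules, and the change between libraries is their content.

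The sequences before the start sites of these contrasting SNRP genes are shown because one fell and the other rose in the same libraries. Each is the 250 bases before the RefSeq start on GRCh38.p14, written in the direction of transcription, and capitals mark CCGGAAG, the core bound by ETS factors, on either strand. SNRPB lies at chr20:2470790-2471039, minus strand and SNRPN at chr15:24856321-24856570, plus strand.
SNRPB: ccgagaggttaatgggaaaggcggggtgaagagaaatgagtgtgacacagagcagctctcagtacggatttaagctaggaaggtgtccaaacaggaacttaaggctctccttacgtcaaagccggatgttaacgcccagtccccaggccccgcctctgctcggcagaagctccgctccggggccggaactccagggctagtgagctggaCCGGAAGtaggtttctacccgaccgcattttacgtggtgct
SNRPN: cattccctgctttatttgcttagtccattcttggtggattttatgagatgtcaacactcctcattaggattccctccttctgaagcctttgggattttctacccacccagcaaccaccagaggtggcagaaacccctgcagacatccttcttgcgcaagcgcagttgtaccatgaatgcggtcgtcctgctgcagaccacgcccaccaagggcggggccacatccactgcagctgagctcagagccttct
SNRPB held 1 match and SNRPN held none. RefSeq gives 1 start per gene in this table, and SNRPN and others have several promoters, so the window need not be the one used in these cells.

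Motif matches differed between families. Of the 65 members 56 had an entry in the table of 300-base windows, which run from 250 bases before to 50 after the start. CCGGAAG was present on either strand in 18 of 56 (32.1%), against 10.3% of all 35116 windows and 17.7% of the 11065 windows of tested genes. It was in 7 of 11 SNRP and 6 of 8 SF3A or SF3B windows, but in 3 of 23 HNRNP, 2 of 11 SRSF and none of 3 MBNL windows. The CCAAT box was in 22 of 56 (39.3%, against 34.6% and 35.8%) and was most frequent among HNRNP genes, with 15 of 23. An E2F core, searched as TTTCCCGC, TTTGGCGC, TTTCGCGC or TTTGCCGC, was in 6 of 56 (10.7%, against 3.31% of all windows and 5.12% of those of tested genes). The cell cycle homology region TTTGAA was in 4 of 56 (7.14%, against 15.2% and 10.1%), and a full p53 consensus site was in none (0.0285% of all windows). None of the strings contains another. Among members that fell in the shARVCF lines 10 of 36 held CCGGAAG and 15 of 36 held CCAAT, and among the other 17 tested members with a window 8 and 5 did. A match describes letters in a window and shows no binding.

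The SF3A and SF3B genes had the median nearest 0 of the families in the shARVCF lines. Of the 9 genes 4 fell there, SF3A2, SF3B2, SF3B3 and SF3B4, and none rose (median -0.25, all genes: 21.7% and 21.0%). In the control line SF3B1 and SF3B3 fell and SF3A3, SF3B5 and SF3B6 rose. These are shares of 22.2% and 33.3%, against 32.0% and 25.1% of all genes. After trend removal 1 fell and 2 rose in the control line (all genes: 21.1% and 28.7%). SF3B1, the largest SF3B subunit and a frequent site of mutation in myeloid neoplasms, stood at 6137 in the control line without drug, 2854, 2188 and 2266 in its nutlin-3a libraries, 6394, 6279 and 5529 in the shARVCF lines without drug and 5532, 5384 and 4449 in their nutlin-3a libraries. Its nutlin-3a control libraries lay below all others (log2 -1.34, SE 0.17, adjusted p = 3.3e-05), while the shARVCF value of -0.25 was not called (adjusted p = 0.123). The effects differed by 1.09 (SE 0.21, adjusted p = 0.00221). SF3B1 has 6526 spliced bases, and trend removal ended each of these calls: the control fall was -0.31 (adjusted p = 0.107) and the difference of effects 0.20 (adjusted p = 0.55).

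SF3B6, the small subunit that contacts the branch-site adenosine, moved oppositely to SF3B1 in the control line. It stood at 1558 in the control line without drug, 3264, 3072 and 3579.5 in its nutlin-3a libraries, 1566, 1720.2 and 1539 in the shARVCF lines without drug and 1729, 1754 and 1532 in their nutlin-3a libraries. All nutlin-3a control libraries lay above all others (log2 1.08, SE 0.13, adjusted p = 2.35e-05; 0.87 after trend removal, adjusted p = 0.000408), and the 6 shARVCF libraries overlapped (0.05). SF3B5, another small subunit, rose from 1488 to 3323, 2294 and 2331 in the control line (log2 0.81, SE 0.20, adjusted p = 0.00354), but after trend removal the value was -0.02. SF3B3 fell in both kinds of line (-0.65 and -0.55; adjusted p = 6.64e-05 and 0.002), although its control value turned to 0.30 after trend removal.

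SF3A2 showed 1468, 1329 and 1662 in untreated and 761, 805 and 967 in nutlin-3a shARVCF libraries, without overlap (log2 -0.82, SE 0.15, adjusted p = 0.00088). SF3B2, the most abundant of the family by scaled fragments, fell by 0.42 on the log2 scale there (adjusted p = 0.00248). The fall of SF3B4 (-0.41, adjusted p = 0.04) was lost without nutlin-3a control replicate 3, any 1 of the untreated shARVCF replicates, or nutlin-3a shARVCF replicate 1 or 2 (adjusted p = 0.0559 to 0.125).

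The window before SF3B6, at chr2:24076327-24076576, minus strand on GRCh38.p14, is shown because it held more CCGGAAG matches than any other member's.
SF3B6: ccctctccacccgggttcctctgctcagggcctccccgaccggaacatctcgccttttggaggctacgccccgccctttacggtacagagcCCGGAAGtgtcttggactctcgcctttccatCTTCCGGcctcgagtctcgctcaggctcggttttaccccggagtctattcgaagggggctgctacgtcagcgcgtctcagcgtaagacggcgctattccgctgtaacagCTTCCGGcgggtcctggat
Capitals again mark the ETS core on either strand, here at 3 places.

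Among the SR proteins, 7 of 12 fell and 2 rose in the shARVCF lines (median -0.66, all genes: 21.7% and 21.0%). In the control line 6 fell and 2 rose (median -0.38, all genes: 32.0% and 25.1%). SRSF5 and SRSF8 were the genes that rose, in both kinds of line. After trend removal the shARVCF counts were again 7 and 2 (all genes: 20.7% and 24.4%). In the control line 2 then fell and 4 rose (median 0.21, all genes: 21.1% and 28.7%). Between the treated lines 4 were lower in the shARVCF lines, and 10 after trend removal (all genes: 26.1% and 23.0%). SRSF2, which binds exonic enhancers and is mutated in myeloid neoplasms, stood at 5461 in the control line without drug, 2701, 1990.2 and 1999 in its nutlin-3a libraries, 5157, 5045 and 5176 in the shARVCF lines without drug and 2312, 1876 and 2098 in their nutlin-3a libraries. It fell about equally in both, with every treated library below every untreated one (shARVCF log2 -1.30, SE 0.12, adjusted p = 3.22e-06; control log2 -1.31, SE 0.17, adjusted p = 4.08e-05). The difference of effects was 0.01 (SE 0.21, adjusted p = 0.974). Exons of SRSF2 overlap those of MFSD11 on the opposite strand over 34.7% of their length, and the labels do not say whether strand was used in counting, but MFSD11 stood at 237 to 422 in all libraries.

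SRSF8, an intronless retrogene copy related to SRSF2 (chromosome 11, 95067197 to 95071224, plus strand, 1 exon), moved the other way. It stood at 732 in the control line without drug, 1222, 1027 and 1164 in its nutlin-3a libraries, 653, 663 and 582 in the shARVCF lines without drug and 1248, 1161 and 1136 in their nutlin-3a libraries. Each treated library lay above each untreated one (shARVCF log2 0.90, SE 0.10, adjusted p = 1.32e-05; control log2 0.63, SE 0.14, adjusted p = 0.00207). The ratio of SRSF8 to SRSF2 signal was 0.113 to 0.134 in the 4 untreated libraries, 0.453 to 0.582 in nutlin-3a control libraries and 0.54 to 0.618 in nutlin-3a shARVCF libraries. No run of 50 bases was shared between the annotated transcripts of SRSF2 and SRSF8.

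SRSF5, an SR protein first described as an insulin-induced and delayed-early gene, rose from 1854 to 2799, 2949 and 3398 in the control line (log2 0.71, SE 0.14, adjusted p = 0.0011). In the shARVCF lines it went from 2018, 2043 and 2019 to 2835, 2642 and 2278, again without overlap (log2 0.35, SE 0.10, adjusted p = 0.0165), but this call was lost without nutlin-3a shARVCF replicate 1 or 2 (log2 0.28 and 0.33, adjusted p = 0.0681 and 0.0543). SRSF10, a splicing repressor when dephosphorylated, fell in both (shARVCF -0.79, adjusted p = 5.17e-05; control -0.90, adjusted p = 0.000199). After trend removal the control value of SRSF10 was -0.09 (adjusted p = 0.554).

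SRSF7 and SRSF9 were the SR genes with a called difference of effects. SRSF7, which also links splicing to mRNA export, stood at 2231 in the control line without drug, 1947, 1715 and 1624 in its nutlin-3a libraries, 2358, 2200.1 and 2212 in the shARVCF lines without drug and 1245, 1086 and 1016 in their nutlin-3a libraries. Its shARVCF libraries under nutlin-3a lay below all others (log2 -1.02, SE 0.10, adjusted p = 5.14e-06), the control change of -0.34 missed the threshold (adjusted p = 0.0564) and passed with line as a term (adjusted p = 0.0315), and the effects differed by -0.68 (adjusted p = 0.0113). SRSF9 stood at 2455, 2016 and 2368 in nutlin-3a control and 1454, 1395 and 1520.0 in nutlin-3a shARVCF libraries (log2 -0.64, SE 0.11, adjusted p = 0.000332). After trend removal that value was -0.16 (adjusted p = 0.25) and the difference of effects of SRSF9 -0.15 (adjusted p = 0.678). Exons of SRSF9 overlap those of GATC on the opposite strand over 41.2% of their length. SRSF1, the most abundant SR gene by scaled fragments, fell in both (shARVCF -0.66, adjusted p = 0.000215; control -0.61, adjusted p = 0.00302; control -0.08 after trend removal), and 59.0% of its exon length is shared with AC015813.2 on the same strand. SRSF3 and SRSF4 were lower in treated shARVCF than in treated control libraries (-0.31 and -0.50; adjusted p = 0.0311 and 0.00123). The SRSF3 call was lost without nutlin-3a control replicate 1 (-0.19, adjusted p = 0.111) or nutlin-3a shARVCF replicate 2 or 3, and the SRSF4 difference was -0.33 in the first library series alone (adjusted p = 0.0693). SRSF12 was near the filter, at 4.75 to 18.8, and was called in no comparison.

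In the values as deposited most hnRNP genes fell in both kinds of line. In the shARVCF lines 19 of 23 tested genes fell and none rose (median -0.62, all genes: 21.7% and 21.0%). In the control line 14 fell and none rose (median -0.50, all genes: 32.0% and 25.1%). After trend removal 17 fell in the shARVCF lines (all genes: 20.7%). In the control line 6 then fell and 3 rose, with a median of -0.06. The share fallen there, 26.1%, was near the 21.1% of all genes. HNRNPA2B1, which sorts RNAs and binds telomeric repeats, was the most abundant member of all families, at 24289 ± 264 in untreated and 15035 ± 1266 in nutlin-3a shARVCF libraries (SD, n = 3; log2 -0.70, SE 0.11, adjusted p = 0.000197). It stood at 23088 in the untreated control library and 14534, 15997 and 18625 under nutlin-3a (log2 -0.50, adjusted p = 0.0123), but the control value was 0.27 after trend removal, and -0.33 with an adjusted p of 0.0818 under upper-quartile scaling.

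HNRNPC, whose tetramers measure the length of nascent RNA, stood at 13572 in the control line without drug, 7708, 9468 and 9638 in its nutlin-3a libraries, 13700.3, 13835 and 14337 in the shARVCF lines without drug and 7183, 6754 and 7513 in their nutlin-3a libraries. Treated and untreated libraries did not overlap, and the fall was -0.97 in the shARVCF lines (adjusted p = 7.5e-06) and -0.61 in the control line (adjusted p = 0.00272). The control value turned to 0.28 after trend removal (adjusted p = 0.187). Its window at chr14:21269443-21269692, minus strand is shown as the example of the CCAAT box among hnRNP genes. Capitals mark CCAAT, or ATTGG where the box lies on the other strand.
HNRNPC: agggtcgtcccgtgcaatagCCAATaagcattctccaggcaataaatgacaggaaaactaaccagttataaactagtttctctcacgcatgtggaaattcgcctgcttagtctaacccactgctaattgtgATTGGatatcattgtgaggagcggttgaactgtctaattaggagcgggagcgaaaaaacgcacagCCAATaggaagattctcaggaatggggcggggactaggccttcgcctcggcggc
The box occurs 3 times in these 250 bases.

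HNRNPA0, an intronless gene whose product binds AU-rich mRNA, stood at 4784 in the control line without drug, 2378, 1857 and 2102 in its nutlin-3a libraries, 4193, 4077 and 4476 in the shARVCF lines without drug and 1705, 1997 and 2238 in their nutlin-3a libraries. It had the largest fall of the family in both kinds of line (shARVCF log2 -1.11, SE 0.12, adjusted p = 8.45e-06; control log2 -1.19, SE 0.16, adjusted p = 6.22e-05). With 8726 spliced bases it is also the longest hnRNP transcript, and the control value after trend removal was -0.06 (adjusted p = 0.785). HNRNPR, a regulator of axonal mRNA in neurons, fell by 0.91 and 1.15 on the log2 scale (adjusted p = 3.48e-06 and 6.99e-06), and its control value was 0.15 after trend removal. HNRNPUL1 fell likewise (-0.88 and -1.08; adjusted p = 0.000644 and 0.00119), and its control value after trend removal was -1.09 (adjusted p = 0.00125).

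HNRNPD, which also destabilises AU-rich mRNA, stood at 7267 in the control line without drug, 4805, 5359 and 6351 in its nutlin-3a libraries, 8055, 7344 and 7414 in the shARVCF lines without drug and 4007, 4063 and 3714 in their nutlin-3a libraries. It fell in the shARVCF lines (log2 -0.95, SE 0.11, adjusted p = 1.36e-05) and, by a smaller value, in the control line (-0.41, adjusted p = 0.0325). The control call was lost without nutlin-3a control replicate 1 or 2 (adjusted p = 0.0606 and 0.0639), and trend removal turned the value to 0.07. HNRNPA1, HNRNPA1L2, HNRNPA3, HNRNPDL, HNRNPF, HNRNPH1, HNRNPH3, HNRNPK, HNRNPL, HNRNPM and HNRNPUL2 complete the genes that fell in the shARVCF lines, and of these HNRNPA1L2, HNRNPDL, HNRNPH3 and HNRNPM were not called in the control line. After trend removal HNRNPK (-0.09, adjusted p = 0.34) and HNRNPH3 (-0.33, adjusted p = 0.0732) lost their calls in the shARVCF lines. HNRNPA1, HNRNPK and HNRNPUL2 lost their control-line calls (0.12, -0.11 and -0.13; adjusted p = 0.6, 0.404 and 0.458), and HNRNPA3 turned from -0.41 to 0.70 (adjusted p = 0.000186).

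HNRNPAB and HNRNPU fell more in the shARVCF lines than in the control line. HNRNPAB stood at 3897 in the control line without drug, 2946, 3001 and 3371 in its nutlin-3a libraries, 4122, 3914 and 4462 in the shARVCF lines without drug and 2000.2, 2061 and 2386 in their nutlin-3a libraries. All treated shARVCF libraries were below all other libraries (shARVCF effect log2 -0.96, SE 0.10, adjusted p = 6.71e-06; difference of effects -0.63, adjusted p = 0.0139), although the difference was -0.19 after trend removal (adjusted p = 0.494) and -0.55 in the first library series alone (adjusted p = 0.0619). HNRNPU, a nuclear scaffold protein, stood at 8512, 8755 and 10208 in nutlin-3a control and 5822, 6618 and 6535 in nutlin-3a shARVCF libraries (log2 -0.53, SE 0.10, adjusted p = 0.000412). Its control effect of -0.13 was not called (adjusted p = 0.427) and was 0.89 after trend removal (adjusted p = 0.000119). The difference of effects for HNRNPU (-0.54, adjusted p = 0.0254) was lost without nutlin-3a shARVCF replicate 1 (adjusted p = 0.0504) or without the second library series (adjusted p = 0.0765).

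HNRNPLL, a regulator of CD45 splicing in lymphocytes, was the hnRNP gene with a called difference of effects above 0. It stood at 829.6 in the control line without drug, 533, 374 and 428 in its nutlin-3a libraries, 804, 859.9 and 733 in the shARVCF lines without drug and 686, 639.8 and 677 in their nutlin-3a libraries. The control line fell (log2 -0.91, SE 0.18, adjusted p = 0.000912), whereas the shARVCF value of -0.26 was not called (adjusted p = 0.128). The difference of effects, 0.66, had an adjusted p of 0.039 and was lost without any 1 of 7 libraries, nutlin-3a control replicates 2 and 3, untreated shARVCF replicates 1 and 3 and all nutlin-3a shARVCF replicates (adjusted p = 0.0529 to 0.0736). It was 0.38 in the first library series alone (adjusted p = 0.162). After trend removal the control value was -0.06 and the difference of effects 0.03 (adjusted p = 0.769 and 0.938). HNRNPA1P10 differed between the lines under nutlin-3a (log2 -0.93, SE 0.24, adjusted p = 0.00797), but in the first library series alone by -0.25 (adjusted p = 0.231) and after trend removal by -0.63 (adjusted p = 0.12). It is a processed pseudogene that shares 72.8% of its 50-base windows with HNRNPA1, with a longest common run of 301 bases, so its value and part of that of HNRNPA1 are uncertain. HNRNPA1L2 shares a run of 286 bases with HNRNPA1, and HNRNPUL2 shares 45.7% of its exon length with the readthrough gene HNRNPUL2-BSCL2.

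In the values as deposited all 3 muscleblind genes fell in the control line (all genes: 32.0%). In the shARVCF lines MBNL1 and MBNL3 fell and MBNL2 rose (all genes: 21.7% and 21.0%). After trend removal 2 of the 3 fell in the control line (all genes: 21.1%). The shARVCF counts were again 2 fallen and 1 risen (all genes: 20.7% and 24.4%). MBNL1, the main muscleblind of most tissues (chromosome 3, 152243828 to 152465780, plus strand, 11 exons), stood at 3084 in the control line without drug, 430.4, 259 and 346 in its nutlin-3a libraries, 3660.0, 3766 and 3671 in the shARVCF lines without drug and 2345, 2436 and 2552 in their nutlin-3a libraries. In the control line it fell 9.1-fold (log2 -3.19, SE 0.20, adjusted p = 1.4e-07), to a level that no other library approached. The shARVCF mean went from 3699 ± 58.5 to 2444 ± 104 (SD, n = 3), a 1.51-fold fall (log2 -0.60, SE 0.14, adjusted p = 0.0052). The treated groups differed 7.21-fold (log2 2.85, SE 0.14, adjusted p = 3.1e-08) and the effects by 2.59 (SE 0.25, adjusted p = 2.81e-05). After trend removal the control fall was -2.12 (adjusted p = 1.9e-06) and the difference of effects 1.68 (adjusted p = 0.000694), and in the first library series alone they were -2.84 and 2.24 (adjusted p = 4.54e-06 and 0.000178). Over the libraries left out in turn, the control value of MBNL1 ran from -3.36 to -2.99. The antisense gene MBNL1-AS1 overlaps 15.4% of its exon length and stood at 0 to 19.5.

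MBNL2, which acts mainly in brain, moved in opposite directions in the 2 kinds of line (chromosome 13, 97221434 to 97394120, plus strand, 9 exons). It stood at 1292 in the control line without drug, 653, 523 and 645 in its nutlin-3a libraries, 1153, 1416 and 1227 in the shARVCF lines without drug and 1579, 2382 and 1901 in their nutlin-3a libraries. Every nutlin-3a control library lay below the untreated control library (log2 -1.10, SE 0.21, adjusted p = 0.000693), and every nutlin-3a shARVCF library lay above every untreated one (log2 0.61, SE 0.15, adjusted p = 0.00505). The difference of effects was 1.71 (SE 0.26, adjusted p = 0.000478). After trend removal the rise in the shARVCF lines was 0.88 (adjusted p = 0.000151) and the difference 0.97 (adjusted p = 0.014), but the control fall was -0.09 and no longer called (adjusted p = 0.707).

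MBNL3, linked to an undifferentiated state of muscle precursors, was much the scarcest (chromosome X, 132369317 to 132489968, minus strand, 7 exons). It stood at 200.1 in the control line without drug, 28.8, 26.5 and 33.8 in its nutlin-3a libraries, 189, 258 and 230.3 in the shARVCF lines without drug and 56.5, 113 and 61.4 in their nutlin-3a libraries. All treated libraries lay below all untreated ones in both kinds of line (control log2 -2.72, SE 0.37, adjusted p = 5.14e-05; shARVCF log2 -1.60, SE 0.26, adjusted p = 0.000326). The treated groups did not overlap (log2 1.28, SE 0.26, adjusted p = 0.00106), but after trend removal they differed by -0.02 (adjusted p = 0.965). The difference of effects, 1.12, missed the threshold (adjusted p = 0.0771) and passed with line as a term (adjusted p = 0.0245) or without nutlin-3a shARVCF replicate 1 (adjusted p = 0.0451).

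**Figure D4:**
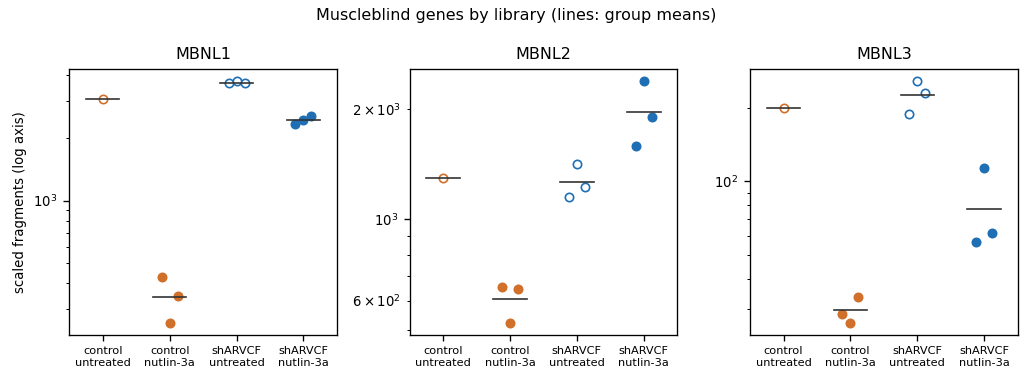
Scaled fragments of MBNL1, MBNL2 and MBNL3 in each library (y axes, log scale, each with its own range) by group, with lines at group means. For MBNL1 the 3 nutlin-3a control libraries, at 259 to 430.4, lie apart from all others, and for MBNL2 they are the lowest group while nutlin-3a shARVCF libraries are the highest.

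The balance of the muscleblind genes changed with treatment. The ratio of MBNL1 to MBNL2 signal was 2.39 in the untreated control library and 2.66 to 3.18 in untreated shARVCF libraries. It was 1.02 to 1.48 in nutlin-3a shARVCF libraries and 0.495 to 0.659 in nutlin-3a control libraries. Summed MBNL signal was 4576 in the untreated control library and 808 to 1112 in nutlin-3a control libraries. In the shARVCF lines it was 5001 to 5440 untreated and 3981 to 4931 under nutlin-3a. The groups of each line did not overlap, and the shARVCF sum holds the lower MBNL1 and the higher MBNL2 together.

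The windows before MBNL1 and MBNL2 are shown for the opposite directions of these genes in the shARVCF lines. They lie at chr3:152268679-152268928, plus strand and chr13:97141584-97141833, plus strand, and hold neither the CCAAT box nor the ETS or E2F core, so no base is capitalised. The cell cycle homology region TTTGAA, which is not capitalised here, had 1 match in the MBNL2 window, on the other strand (ttcaaa). MBNL1 had none.
MBNL1: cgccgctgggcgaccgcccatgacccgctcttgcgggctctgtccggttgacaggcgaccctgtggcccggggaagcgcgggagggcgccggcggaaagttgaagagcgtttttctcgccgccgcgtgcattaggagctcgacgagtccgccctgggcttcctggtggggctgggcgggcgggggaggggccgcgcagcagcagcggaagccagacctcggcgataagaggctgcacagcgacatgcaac
MBNL2: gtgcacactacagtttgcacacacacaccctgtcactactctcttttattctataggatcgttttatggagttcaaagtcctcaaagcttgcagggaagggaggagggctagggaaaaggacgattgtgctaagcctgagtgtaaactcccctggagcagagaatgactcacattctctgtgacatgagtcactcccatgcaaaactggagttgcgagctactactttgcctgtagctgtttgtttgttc
Each muscleblind gene has several annotated starts, and RefSeq's choice may differ from the one used here.

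Levels per kilobase of the longest transcript, as means over all 10 libraries, ranked HNRNPA2B1 (5192 scaled fragments per kilobase), HNRNPK (4453) and SNRPD2 (4434) highest. Levels of each moved with treatment, so these means describe the order over all libraries and not within a group. At the other end of the genes that passed the filter were SRSF12 (3.35) and MBNL3 (10.6). MBNL1 stood at 477 per kilobase in the untreated control library against 277 for MBNL2, and after nutlin-3a in the control line at 53.4 against 130.0. The members together took 1.44% to 1.51% of the library total in the 4 untreated libraries and 0.981% to 1.13% in the 6 treated ones. HNRNP genes held most of this, 0.911% to 0.959% untreated and 0.551% to 0.651% treated.

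**Figure D5:**
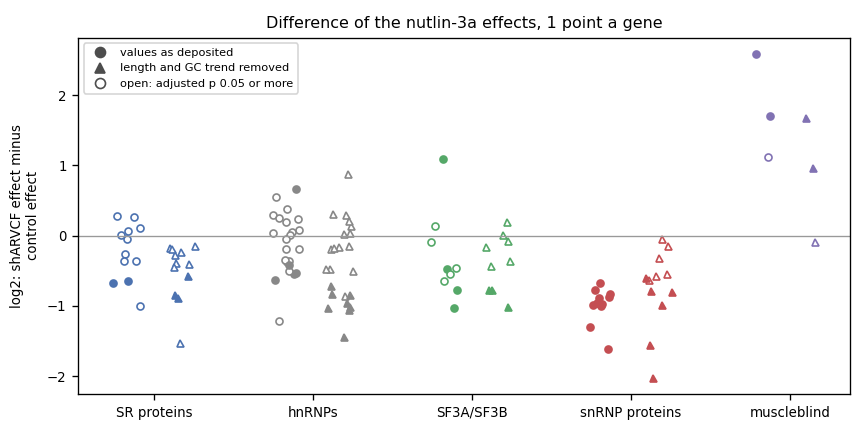
Difference of the nutlin-3a effects (shARVCF minus control, log2, y axis) for each tested member by family, as deposited (circles) and after the trend with length and GC content was removed (triangles), open where the adjusted p was 0.05 or more. All 12 SNRP circles are filled and below 0, 6 of their triangles are filled, and MBNL1 and MBNL2 stay above 0 and filled in both.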

How the data were processed

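Stranded mRNA libraries were sequenced from 10 samples, per the labels' protocols. Per the submitters' processing notes, the authors used bcl2fastq 1.8.3, HISAT2 2.1.0 with hg38 and Cuffnorm 2.2.1. For the annotation and the use of strand in counting the sources used here give nothing. The deposited values are a signal made by the authors, estimated fragments per gene scaled by a factor per library. Because they are not whole, the count test foreseen for whole numbers gave way to its stated fallback, limma 3.58.1 in R 4.3.3 on log2(value + 1).

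Genes with at least 10 in at least 3 libraries (14955) entered 1 fit of 4 group means over 10 libraries (6 residual degrees of freedom, moderated variances with trend and robust weights). For the single untreated control library the spread of the other groups was assumed. The fit was tested on simulated data. Residuals of shARVCF libraries of the same line correlated across genes (r 0.275, 0.288 and 0.327), so line was used as a block in an alternative. Those of different lines correlated negatively. As each group was centred on its mean, those values must then be negative on average, so they add no separate evidence.

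Symbols were matched to GENCODE release 29: 24016 of them directly and 719 through older symbols, with 1305 unmatched. Length, GC content and exons are those of the longest transcript. The trend with both was removed with splines of 4 degrees of freedom (14734 genes). Promoter windows are from RefSeq (GRCh38.p14), with 56 of 65 members matched. Other alternatives were pseudocounts of 0.1 and 10, no filter, TMM and upper-quartile factors, the first library series alone and each library left out. Values per library are given for the muscleblind genes and, per family and comparison, for up to 4 called members of largest change with a mean of at least 50, for called members that run against their family, and for the most and least abundant member. Members and lists were chosen with earlier results of these data known.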

Additional observations from a re-analysis of the deposited data

Results flagged for a closer look

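For 25 members the nutlin-3a effect differed between the shARVCF lines and the control line in a test of the difference itself (limma, Benjamini-Hochberg adjusted over all genes; all genes: 12.5% lower, 19.3% higher). Each difference is on the log2 scale, as the shARVCF effect minus the control effect, and rests on 1 untreated control library. HNRNPM, SNRPA, SNRPA1 and SNRPB2 are named here after their values were seen.

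Above 0 were MBNL1 (2.59), MBNL2 (1.71), SF3B1 (1.09) and HNRNPLL (0.66). The MBNL2 effects had opposite signs in the 2 kinds of line, and the other 3 had the lower value in the control line. The HNRNPLL call was kept without nutlin-3a control replicate 1 or untreated shARVCF replicate 2, and was lost without any 1 of the other 7 libraries that could be left out (adjusted p = 0.0529 to 0.0736). After the trend with length and GC content was removed SF3B1 (0.20) and HNRNPLL (0.03) were not called, and in the first library series alone HNRNPLL was 0.38 (adjusted p = 0.162).

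All tested SNRP genes were below 0: SNRPF (-1.62), SNRPD1 (-1.30), SNRPC (-0.996), SNRPE (-0.99), SNRPD3 (-0.97), SNRPG (-0.969), SNRPD2 (-0.96), SNRPA1 (-0.89), SNRPB (-0.87), SNRPN (-0.83), SNRPB2 (-0.77) and SNRPA (-0.67). After trend removal SNRPF (-1.56), SNRPD1 (-2.02), SNRPB2 (-0.99), SNRPE (-0.80), SNRPG (-0.79) and SNRPN (-0.61) stayed called, and SNRPC (-0.55), SNRPD3 (-0.64), SNRPD2 (-0.31), SNRPA1 (-0.57), SNRPB (-0.15) and SNRPA (-0.04) did not (adjusted p = 0.0586 to 0.889).

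Among SF3 genes SF3B6 (-1.03), SF3B5 (-0.77) and SF3B2 (-0.48) were below 0. SF3B5 was lost without untreated shARVCF replicate 3 or nutlin-3a shARVCF replicate 1 or 2 (adjusted p = 0.0521 to 0.0523), and after trend removal it was -0.08 (adjusted p = 0.865). SF3B2 was lost without nutlin-3a control replicate 2 or 3, any 1 of the untreated shARVCF replicates, or nutlin-3a shARVCF replicate 1 (adjusted p = 0.052 to 0.066). It was also lost in the first library series alone (-0.33, adjusted p = 0.13) and after trend removal (-0.44, adjusted p = 0.0783).

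The remaining differences were SRSF7 (-0.68), SRSF9 (-0.65), HNRNPAB (-0.63), HNRNPD (-0.54), HNRNPU (-0.54) and HNRNPM (-0.42). HNRNPD kept its call only when nutlin-3a control replicate 1 was the library left out (otherwise adjusted p = 0.0518 to 0.0758). HNRNPU was lost without nutlin-3a shARVCF replicate 1 (adjusted p = 0.0504). HNRNPM was lost without nutlin-3a control replicate 3, untreated shARVCF replicate 2 or 3, or nutlin-3a shARVCF replicate 2 or 3 (adjusted p = 0.0547 to 0.0605). In the first library series alone HNRNPAB (-0.55), HNRNPD (-0.36), HNRNPU (-0.44) and HNRNPM (-0.39) were not called (adjusted p = 0.0619 to 0.131). After trend removal SRSF9 (-0.15), HNRNPAB (-0.19) and HNRNPM (-0.18) were not called (adjusted p = 0.4 to 0.678).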

How the results depend on the processing

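Of 215 values of 43 named members, 115 were called as reported, and each was recomputed under every alternative that could give it. Most effect came from removing the dependence on transcript length and GC content. It turned the direction of 16 values: in the control line HNRNPA2B1 (0.27), HNRNPC (0.28), HNRNPD (0.065), HNRNPR (0.15), HNRNPU (0.89), SF3B3 (0.30), SF3B5 (-0.0247) and SRSF3 (0.44); between the treated lines HNRNPLL (-0.0944), HNRNPR (-0.93), MBNL3 (-0.0175), SF3A2 (0.0347), SRSF10 (-0.41) and SRSF8 (-0.48); and in the difference of effects HNRNPA0 (-0.97) and HNRNPR (-0.83). A turn was counted where the value was called under either setting. It also brought members fallen in the control line from 25 to 13, members higher in treated shARVCF than control lines from 8 to 2, and members with a higher difference of effects from 4 to 2. Upper-quartile scaling brought the second of these to 5. The cause was not tested. The first library series alone ended 15 calls and added 3 among the 215 values. No other alternative turned a direction by that rule. Both pseudocounts (0.1 and 10), no filter and TMM factors left every count of members within 1.5 times.

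With each library left out in turn, members fallen ran from 36 to 42 in the shARVCF lines and 22 to 26 in the control line, and members risen from 3 to 4 and 9 to 13. Between treated lines 25 to 30 were lower and 7 to 10 higher, without drug none was called, and the difference of effects was lower for 17 to 28 and higher for 3 to 4. Leaving out the untreated control library leaves 2 of the 5 comparisons. Replicate numbers pair the shARVCF libraries by line. With line as a term (the replicate block), members fallen and risen were 41 and 4 in the shARVCF lines, 27 and 11 in the control line, and 23 lower and 5 higher in the difference of effects. It ended no call and added 6 among the named values: SRSF9 in both kinds of line (adjusted p = 0.0232 and 0.0371), SRSF7 and HNRNPAB in the control line (0.0315 and 0.0246), and MBNL3 and SF3A2 in the difference of effects (0.0245 and 0.0492). Comparisons between lines cannot take this block.

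The deposited values carry no unscaled counts, so counting error per gene is unknown. Low members such as SRSF12 and HNRNPA1P33 allow no statement, and the untreated control group adds no spread of its own.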

Other observations

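Other splicing genes, in 10 lists outside the symbol rule, were measured in the same libraries (136 genes, 125 tested). In the shARVCF lines 64 fell and 8 rose under nutlin-3a (51.2% and 6.4%), and in the control line 53 fell and 20 rose (42.4% and 16.0%). For comparison, 21.7% and 32.0% of all genes fell in the respective lines, and 21.0% and 25.1% rose. Counts for these lists were not made after trend removal. Between the treated lines 37 (29.6%) were higher and 42 (33.6%) lower in the shARVCF lines, near the 32.3% and 26.1% of all genes, and without drug none was called (0.0201% of all genes).

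The lists did not all move alike. In the list of the SMN complex and snRNP assembly 3 of 12 tested genes fell in the shARVCF lines (all genes: 21.7%). In the control line 4 of them rose and 4 fell (all genes: 25.1% and 32.0%). Of the LSm ring, the Sm-like ring of the U6 particle, 5 of 6 tested genes fell in the shARVCF lines (all genes: 21.7%). LSM3 fell there by 1.38 on the log2 scale (adjusted p = 5.53e-06). In the control line 1 LSm gene rose and 1 fell (median -0.25, all genes: 25.1% and 32.0%). Of 14 SR-related proteins none rose in the control line or the shARVCF lines (all genes: 25.1% and 21.0%). In the control line 11 fell (median -1.19, all genes: 32.0%), and in the shARVCF lines 7 fell (median -0.29, all genes: 21.7%). Treated shARVCF libraries were higher than treated control libraries for 10 of the 14 (all genes: 32.3%). Among the SR-related proteins SREK1 fell by 2.31 (adjusted p = 9.6e-07) and the long nuclear speckle gene SON by 1.60 (adjusted p = 5.7e-07) in the control line. After the trend with length was removed these values were -1.10 and -0.73 (adjusted p = 0.000523 and 0.000279). PPIH, a cyclophilin of the tri-snRNP, fell by 1.97 in the shARVCF lines and by 1.32 in the control line (adjusted p = 1.47e-08 and 8.01e-06).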
